A study of Homo sapiens with 17 samples.

Results

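Canyon gaps are stretches of the genome that lie between neighbouring lamina-associated domains (LADs) of proliferating fibroblasts and lie mostly under regions listed as H3K27me3 canyons in replicative senescence. A gap is the interval between 2 consecutive LADs on a chromosome. It was counted as a canyon gap when at least 50% of its base pairs lay under canyons and under 50% lay under H3K4me3 mesas of Ras-induced senescence. Chromosomes 1 to 22 held 1979 gaps, of which 20 longer than 3 Mb were left out. Of the remaining 1959 gaps, 776 were canyon gaps (39.6%), and they made up 489 Mb of 966 Mb of gap sequence (50.6%). The gaps were chosen by their measured cover, at least 50% canyon (45.6% of all gaps) and under 50% Ras-induced mesa (15.6% of all gaps had more), so that cover is given as a description. In the text, canyon-and-Ras gaps passed 50% for both lists (117 gaps), Ras gaps passed it for Ras-induced mesas alone (188), and gaps under neither passed it for neither list (878). The other gaps are all 1183 that are not canyon gaps. In the study's usage canyons are broad stretches where senescent cells have less of a mark than proliferating ones, and mesas are stretches where they have more. The canyon list itself states no direction, so loss is taken from that usage.

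The cells were IMR90, a line of human lung fibroblasts, profiled by chromatin immunoprecipitation and sequencing (ChIP-seq) in 17 libraries. For H3K27me3, the series holds 4 libraries of proliferating cells at population doubling 24 and 2 of senescent cells at doubling 87. The senescent cells were held for 2 weeks after the last passage. Which of these libraries entered the canyon and H3K27me3 mesa lists is not known here. The 1 lamin B1 library, behind the LADs, is of proliferating cells at doubling 24. H3K4me3 has 1 proliferating and 1 senescent library at the same doublings for the replicative comparison, and 1 control and 1 Ras-induced library at doubling 15. The Ras cells carried a retroviral ER:Ras construct switched on with 100 nM 4-hydroxytamoxifen, and the labels do not say whether the control cells carried it. LADs of the Ras cells or of their controls were not analysed here. The deposited lists give coordinates on build hg18 and no signal, and values per library were not analysed here, so the depth of each library is unknown and the spread between cultures is unknown for every gap. No chance test was run on the gaps. The 95% intervals below are exact binomial (Clopper-Pearson) intervals, which cover counting error only, and many canyon gaps share a canyon.

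LADs are parts of chromosomes that contact the nuclear lamina, a protein mesh under the nuclear envelope to which lamin B1 belongs. They are mostly poor in genes and low in transcription, and the intervals between them tend to be richer in active genes. H3K27me3 is the mark laid down by Polycomb repressive complex 2 on silenced developmental genes and, at lower density, over broad intergenic stretches. H3K4me3 marks active promoters. Fibroblasts lose lamin B1 when they become senescent. The genes in these gaps were not identified, because no gene annotation on hg18 was used here, and no DNA sequence of the gaps is shown for the same reason.

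Canyon cover of gaps was close to all or none. Of the 1959 gaps, 940 had under 10% of their base pairs under canyons and 783 had at least 90%, with 126 at 10 to 50% and 110 at 50 to 90%. Any canyon base pair at all was found in 56.8% of gaps. Among the 776 canyon gaps, 577 (74.4%) lay wholly under canyons, whereas 33.2% of all gaps did, and 682 (87.9%) were covered to at least 90%. Canyons covered 94.2% of canyon gap base pairs and 7.37% of the base pairs of the 878 gaps under neither. The threshold therefore divided few gaps. Between 40% and 60% cover there were 24 canyon gaps and 27 gaps below the limit.

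The gaps just inside the threshold were of mixed size. The canyon gap with the lowest cover was 60 kb long, on chromosome 10 at 46450001 to 46510000 (hg18), with 50.2% under canyons. The next was 1190 kb long, on chromosome 4 at 18960001 to 20150000, also with 50.2%. Just outside lay a gap of 190 kb on chromosome 9 at 14190001 to 14380000, with 49.8% under canyons and 89.5% under a replicative H3K4me3 mesa. The next outside was 1000 kb long, on chromosome 7 at 44110001 to 45110000, with 49.4% under canyons and 2.90% under replicative mesas. At the Ras limit, a canyon gap on chromosome 17 at 7060001 to 7460000 had 49.7% under Ras-induced mesas, and a gap on chromosome 2 at 108820001 to 108960000, also wholly under a canyon, was left out with 50.0%.

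Canyon gaps were longer than the other gaps. Their median length was 400 kb (quartiles 200 and 850 kb, n = 776), against 240 kb (120 and 470 kb, n = 1183), as the plot of gap lengths shows. The distributions overlapped widely, with canyon gaps from 60 to 2880 kb. Of gaps up to 100 kb, 26.3% were canyon gaps (83 of 316, interval 21.5 to 31.5%). The share was 28.2% of 415 gaps of 100 to 200 kb, 40.1% of 479 gaps of 200 to 400 kb and 45.7% of 387 gaps of 400 to 800 kb. Of gaps over 800 kb it was 57.2% (207 of 362, interval 51.9 to 62.3%). Canyon gaps had the higher median on 20 of 22 chromosomes, with equal medians of both classes on chromosome 4 and a lower one for canyon gaps on chromosome 19.

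**Figure D1:**
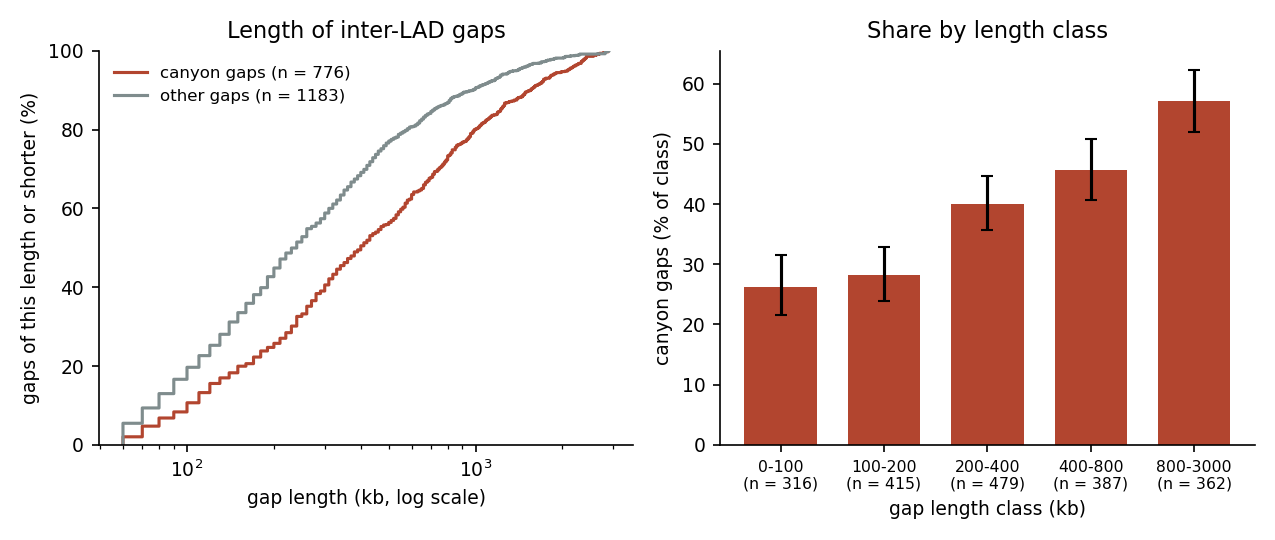
Left, cumulative share of gaps (%) by gap length (kb, log scale) for 776 canyon gaps and 1183 other gaps. Right, share of gaps (%) that were canyon gaps in 5 length classes, with 95% exact binomial intervals; the bars go from 26.3% in the shortest class to 57.2% in the longest.

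The size of the length difference depended on the rule. It was 160 kb as reported, 70 kb when canyon gaps were required to have no base pair under Ras-induced mesas (medians 330 and 260 kb), 90 kb among gaps of up to 1 Mb (300 and 210 kb) and 95 kb at 90% canyon cover (355 and 260 kb). Without any condition on Ras-induced mesas it was 150 kb (380 and 230 kb). Long canyon gaps were less often covered throughout. Of those up to 100 kb, 92.8% lay wholly under canyons, and of those over 800 kb, 49.8%.

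The 5 longest canyon gaps show both forms. On chromosome 6 at 111650001 to 114530000, a gap of 2880 kb lay wholly under 1 canyon, with no base pair under either H3K4me3 list. A gap of the same length on chromosome 13 at 42120001 to 45000000 had 62.9% under canyons, 30.3% under Ras-induced mesas, 20.2% under replicative mesas and 5.51% under H3K27me3 mesas. The third, on chromosome 5 at 71280001 to 74100000, had 99.9% under 4 canyons and nothing under any mesa. The other two were 2780 kb long, on chromosome 6 at 35960001 to 38740000 (55.0% under canyons) and on chromosome 12 at 47370001 to 50150000 (78.2%). The gap at 35960001 on chromosome 6 lay between a LAD of 150 kb wholly under a canyon and a LAD of 2260 kb with no canyon, of which 98.1% lay under replicative H3K4me3 mesas and 84.2% under H3K27me3 mesas. Loss and gain of H3K27me3 thus lay on either side of that gap.

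Chromosomes differed in how many of their gaps were canyon gaps. The highest share was on chromosome 13, with 43 of 68 gaps (63.2%, interval 50.7 to 74.6%), which held 74.5% of its gap base pairs. Chromosomes 15 and 2 followed with 50.9% (28 of 55) and 50.6% (84 of 166). The lowest shares were on chromosome 16 with 6 of 55 gaps (10.9%, interval 4.11 to 22.2%), chromosome 21 with 2 of 18 (11.1%, 1.38 to 34.7%) and chromosome 19 with 7 of 49 (14.3%, 5.94 to 27.2%). Over the 22 chromosomes the mean share was 36.7 ± 13.4% (SD). Neighbours in this order mostly had overlapping intervals, as the plot by chromosome shows, whereas the intervals of chromosomes 1, 3, 7, 8, 9, 11, 14, 16, 18, 19, 20, 21 and 22 lay wholly below that of chromosome 13. Chromosome 17 is among the gene-dense chromosomes, as are 16 and 19, but 48.0% of its gaps (36 of 75) were canyon gaps.

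**Figure D2:**
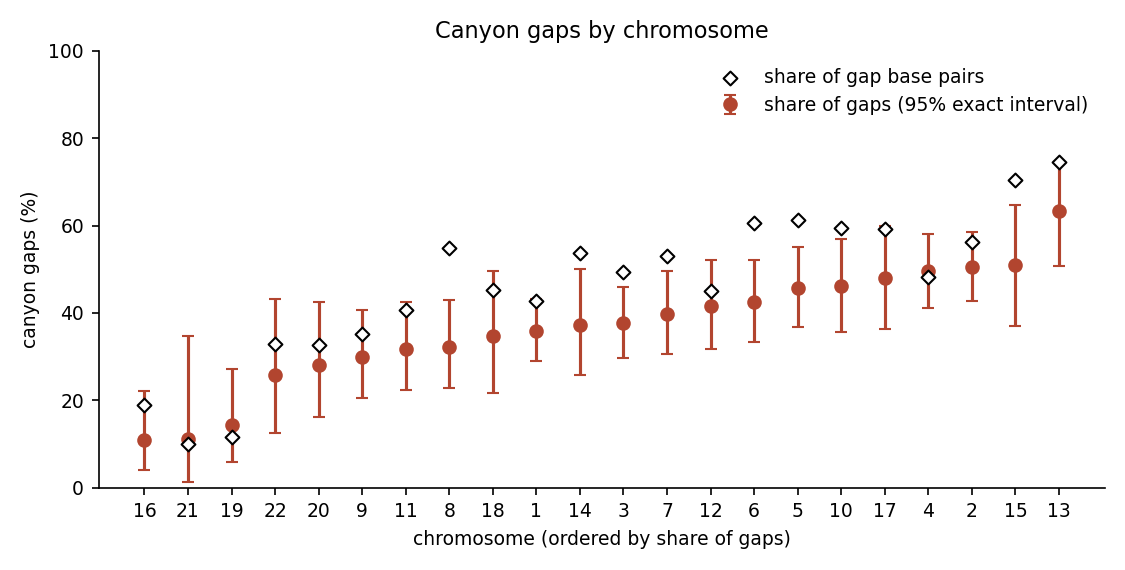
Share of gaps that were canyon gaps on each of 22 chromosomes (circles, %, with 95% exact binomial intervals) and share of gap base pairs that they held (diamonds, %). Shares of gaps go from 10.9% on chromosome 16 to 63.2% on chromosome 13.

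Canyon gaps were rare near chromosome ends. Of the 776, 29 had their middle within 5 Mb of an end of the listed span of their chromosome (3.74%, interval 2.52 to 5.32%). Of the 1183 other gaps, 152 did (12.8%, 10.99 to 14.9%), and of all 1959 gaps 181 did (9.24%). Ras gaps had the highest share of the classes, with 42 of 188 (22.3%, 16.6 to 29.0%), and gaps under neither had 11.05% (97 of 878). Canyon gaps had the lower share on 21 of 22 chromosomes, with chromosome 3 as the exception. The median distance from an end was 37.7 Mb for canyon gaps and 25.4 Mb for the others.

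Most canyon gaps were only a part of a longer canyon. In 577 gaps 1 canyon covered the gap and went on past both of its borders into the LADs, and in 273 (35.2%) a single canyon held the gap and both flanking LADs entirely. Of the 776 gaps, 661 met 1 canyon, 69 met 2, and 46 met 3 or more, with 9 as the most. In all, 546 canyons touched canyon gaps, 40.03% of the 1364 canyons on these chromosomes. When each gap is assigned to the canyon that covers most of it, 407 canyons held the 776 gaps, with a median canyon length of 1.33 Mb. Of these, 157 held 2 or more gaps, 526 gaps in all (67.8%), and 33 held 5 or more, with 221 gaps. Canyon gaps are therefore not independent of each other. When canyons less than 10 kb apart were joined, 337 canyons touched them in place of 546.

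The canyons that held the most gaps were on chromosomes 1, 2 and 13. A canyon of 12.5 Mb on chromosome 1 at 183665001 to 196147499 held 12 canyon gaps and contained 12 whole LADs, and 62.8% of its own base pairs were LAD sequence. It met no H3K4me3 mesa of either kind. A canyon of 18.0 Mb on chromosome 2 at 181998801 to 200048699 held 11, with 57.0% LAD sequence, 3.00% under replicative and 8.34% under Ras-induced mesas. One of 15.5 Mb on chromosome 13 at 59853601 to 75355999 also held 11, with 62.9% LAD sequence. In these 3 places the loss of H3K27me3 crossed LADs and gaps alike.

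Canyon gaps followed each other along chromosomes. Of 768 canyon gaps with a next gap in the set, 487 were followed by another (63.4%). Of 1150 other gaps with a next gap, 277 were followed by a canyon gap (24.1%). Among all 1959 gaps, 39.6% were canyon gaps. Since 526 of the 776 shared a canyon with another canyon gap (67.8%), neighbours often met the rule through the same canyon. The succession and the runs below thus describe how far canyons extend. The 776 gaps formed 289 runs, of which 122 were single gaps and 111 had 3 or more, together 542 gaps (69.8%). The longest run had 17 consecutive canyon gaps, on chromosome 2 at 182310001 to 204430000, a span of 22.1 Mb with 98.6% of its base pairs under canyons. Of the 16 LADs inside it, 110 to 3100 kb long, 15 were at least 50% under canyons. Within the run 2 canyons lay side by side, with a break between 18.3 and 18.7 Mb on the map of that run. The map, which adds the flanking LADs, shows 4 canyons, no H3K27me3 mesa, 2 replicative and 2 Ras-induced H3K4me3 mesas. The next runs were 16 gaps on chromosome 1 at 181070001 to 198040000 and 13 gaps on chromosome 13 at 62140001 to 76800000. In both of these more than 99.9% of the span lay under canyons and none under replicative H3K4me3 mesas.

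**Figure D3:**
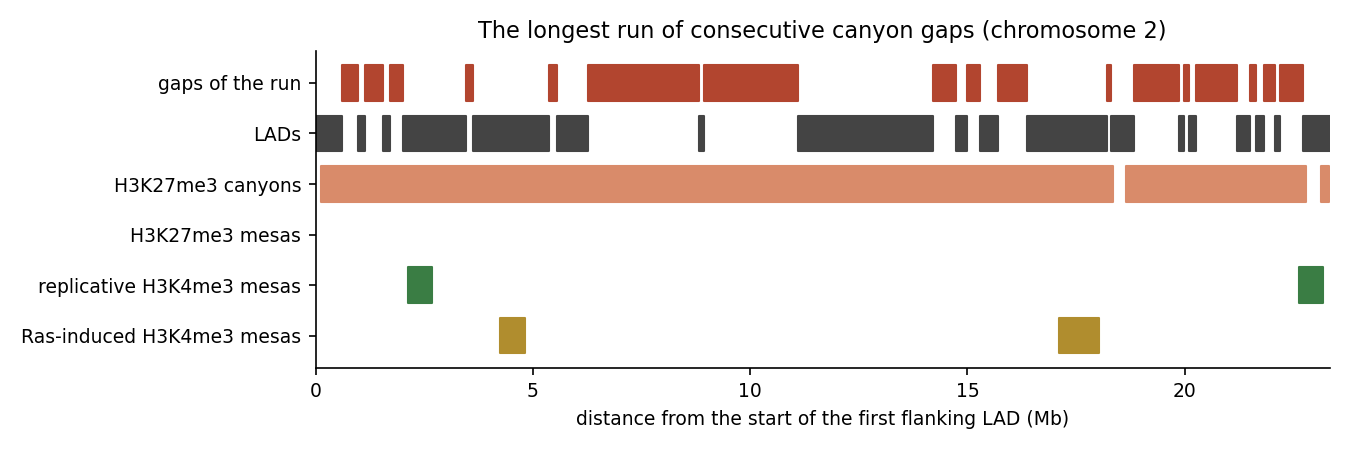
Map of the longest run of consecutive canyon gaps, on chromosome 2, by distance (Mb) from the start of the first flanking LAD. Bars mark the 17 gaps, the LADs and the regions of each list; the longest canyon, from 0.299 to 18.3 Mb, runs across LADs and gaps without a break, and the row of H3K27me3 mesas is empty.

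The state of the flanking LADs followed that of the gap. Of 776 canyon gaps, 469 had both flanking LADs at least 50% under canyons (60.4%, interval 56.9 to 63.9%), as 28.4% of all gaps did. A further 249 (32.1%) had 1 such LAD and 58 (7.47%) had none, so 718 (92.5%) had at least 1, as 53.5% of all gaps did. Of the 1183 other gaps, 87 had both LADs under canyons (7.35%, 5.93 to 8.99%) and 853 had none (72.1%). Of those 87, 65 were canyon-and-Ras gaps. Canyon gaps had the larger share of gaps with both LADs under canyons on 21 of 22 chromosomes. On chromosome 21, the exception, neither of the 2 canyon gaps had both. Since the same canyons chose the gaps and run on into the LADs, these counts describe how far the loss extends.

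At the borders themselves, 1425 of 1552 borders of canyon gaps lay under a canyon (91.8%), and 357 of 2366 borders of other gaps did (15.1%). Canyon cover chose the gaps, so this contrast comes in large part with the rule. At 948 borders of canyon gaps (61.1%) the canyon ran through the whole flanking LAD, of a median 240 kb. At 477 borders (30.7%) it stopped inside the LAD after a median of 114 kb (quartiles 49.6 and 263 kb), and those LADs had a median of 640 kb. At the other 127 borders (8.18%) no canyon lay over the border.

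The profile by distance shows canyon cover declining into the LADs. In canyon gaps, 92.7% of base pairs in the last 50 kb before the border lay under canyons, 89.996% in the first 50 kb of the LAD, 66.4% at 250 to 300 kb and 45.3% at 750 to 800 kb. H3K27me3 mesas covered 0.105% of the first 50 kb of those LADs and 16.1% at 750 to 800 kb. In the LADs beside other gaps, canyons covered 17.2% and H3K27me3 mesas 12.6% of the first 50 kb, and 8.29% and 36.1% at 750 to 800 kb. The canyons that chose the gaps run on into the LADs, and H3K27me3 mesas come from the same comparison of cells. The low H3K27me3 mesa cover beside canyon gaps is therefore not a separate result. Bins deep inside LADs hold only LADs long enough to reach them, 387 of the 1552 borders in the last bin of canyon gaps.

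**Figure D4:**
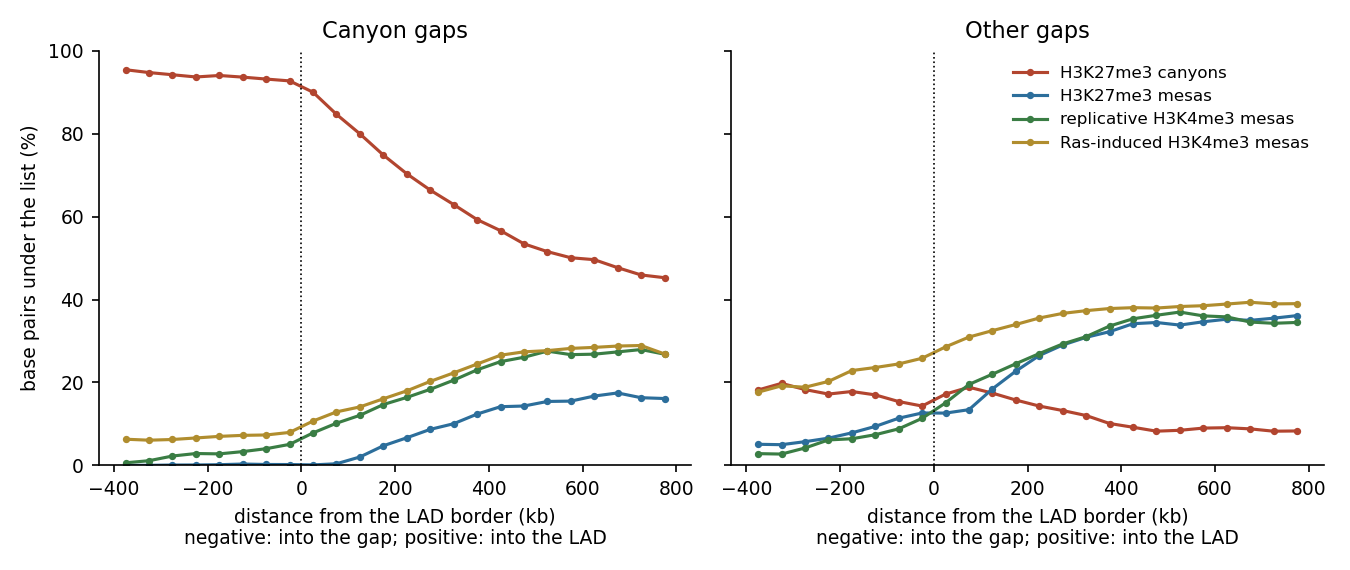
Share of base pairs (%) under each of 4 region lists by distance from the LAD border (kb, bins of 50 kb; negative values lie in the gap, up to its middle, and positive values in the LAD), for canyon gaps (left) and other gaps (right). Canyon cover beside canyon gaps goes from 89.996% in the first LAD bin to 45.3% in the last, and mesa cover goes the other way.

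The LADs beside canyon gaps were shorter. The mean of the 2 flanking LADs had a median of 430 kb for canyon gaps (quartiles 250 and 796 kb) and 700 kb for other gaps (380 and 1260 kb). Canyon gaps had the lower median on 22 of 22 chromosomes. The difference was present in each length class of gaps: 320 against 730 kb for gaps up to 100 kb, and 495 against 775 kb for gaps over 800 kb. Against gaps under neither canyons nor Ras-induced mesas, with 758 kb, canyon gaps were again lower on 22 of 22 chromosomes. LAD length comes from the lamin B1 list, which the canyon condition did not use beyond placing the gaps.

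Where only 1 flanking LAD of a canyon gap was at least 50% under canyons, it was usually the shorter one. In the 249 canyon gaps with 1 flanking LAD at least 50% under canyons, that LAD had a median of 240 kb and the opposite one 910 kb. The covered LAD was the shorter one in 197 of 249 (79.1%), the longer in 50 and equal in 2. A fixed length of canyon fills more of a short LAD, so this comparison does not separate length from the reach of the canyon. The covered LAD lay on the side of lower coordinates in 125 and of higher coordinates in 124. Of the uncovered LADs, 184 still had some canyon base pairs, 69 (27.7%) were at least 50% under replicative H3K4me3 mesas and 41 (16.5%) under H3K27me3 mesas. Of the covered LADs, 21 (8.43%) and 0 were. The 0 follows from their canyon cover.

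A LAD between 2 canyon gaps was nearly always under a canyon too. The canyons that chose the gaps often run on into such LADs, so these counts describe how far canyons extend. Of 487 such LADs, 460 were at least 50% covered (94.5%), as were 40.7% of all 2001 LADs of these chromosomes. Only the 1918 LADs with a counted gap on both sides were sorted in this way. The share was 45.3% of 558 LADs with 1 canyon gap beside them and 8.93% of 873 with none. The median lengths of LADs with 2, 1 and 0 canyon gaps beside them were 280, 510 and 550 kb. Long LADs showed the same order: among those over 780 kb, 68 of 85 LADs between 2 canyon gaps were at least 50% under canyons (80.0%), 38 of 204 with 1 (18.6%) and 4 of 330 with none (1.21%).

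Mesas covered fewer of the LADs between 2 canyon gaps. Replicative H3K4me3 mesas covered at least 50% of 38 of the 487 (7.80%), against 208 of 873 LADs with no canyon gap beside them (23.8%) and 18.5% of all LADs. For Ras-induced mesas the counts were 37 (7.60%) and 298 (34.1%), against 26.2% of all LADs, and for H3K27me3 mesas 3 (0.616%) and 192 (21.99%), against 13.4%. No H3K4me3 mesa is shorter than 501 kb, so LAD length bears on these counts. Within LADs of over 260 and up to 780 kb, replicative mesas covered at least 50% of 14 of 166 LADs between 2 canyon gaps (8.43%) and 71 of 300 with none (23.7%). Above 780 kb the counts were 18 of 85 (21.2%) and 110 of 330 (33.3%). Canyons and H3K27me3 mesas come from the same comparison of cells, so the low H3K27me3 mesa counts are not a separate result. Nor are the low Ras-induced counts, because both gaps beside these LADs were chosen to have under 50% Ras-induced mesa and the reference LADs include those beside Ras gaps. Replicative mesas share sequence with Ras-induced ones, so the rule bears on their counts too.

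**Figure D5:**
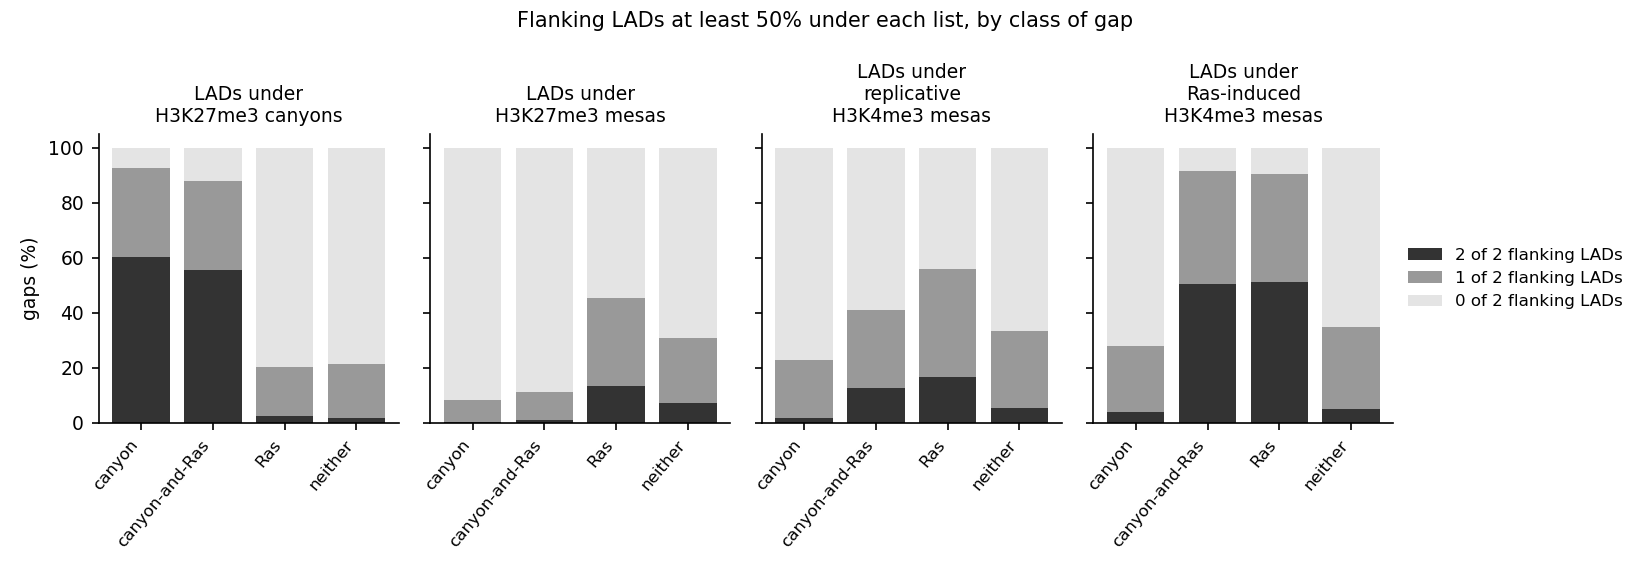
Share of gaps (%) with 0, 1 or 2 flanking LADs at least 50% under each list, for 776 canyon gaps, 117 canyon-and-Ras gaps, 188 Ras gaps and 878 gaps under neither. Both flanking LADs lay under canyons in 60.4% of canyon gaps and 1.94% of gaps under neither.

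Replicative H3K4me3 mesas, a list the rule did not use, were scarce in canyon gaps. They touched 90 of 776 (11.6%), as they did 16.1% of all gaps, and covered at least 50% of 13 (1.68%, interval 0.895 to 2.85%), against 6.18% of all gaps. In base pairs they covered 2.77% of canyon gaps and 6.98% of other gaps, with canyon gaps lower on 22 of 22 chromosomes. Part of that difference comes with the rule, because gaps under Ras-induced mesas were placed among the others and replicative mesas covered 18.6% of Ras gaps. Against the 878 gaps under neither, with 4.15%, canyon gaps were lower on 13 chromosomes, higher on 8 and equal on 1. Without any condition on Ras-induced mesas the difference from other gaps fell from 4.21 to 2.33 percentage points (3.81 and 6.14%). Against gaps under neither it also turned in the longest class. Replicative mesas covered 3.38% of canyon gaps and 10.2% of gaps under neither in the class up to 100 kb, but 2.73% and 2.33% in the class over 800 kb.

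Where replicative mesas did reach canyon gaps, they mostly crossed a border of the gap. No replicative mesa is shorter than 502 kb, and the median canyon gap was 400 kb long. A mesa that meets a gap shorter than itself must cross a border, so the count of crossings follows in part from these lengths. The same count is not given here for other gaps. In 86 of the 90 touched canyon gaps the mesa crossed a border of the gap, in 80 a flanking LAD was at least 50% under such mesas, and in 4 a whole mesa lay inside the gap. The median cover of the touched gaps was 13.2%, and 8 gaps lay wholly under replicative mesas. Among these 8 were 240 kb on chromosome 1 at 152630001 to 152870000, 190 kb on chromosome 2 at 29530001 to 29720000 and 270 kb on chromosome 3 at 69840001 to 70110000. All 3 had at least 91.2% of their base pairs under canyons and none under Ras-induced mesas, so the lists place loss of H3K27me3 and gain of H3K4me3 on the same sequence there.

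Flanking LADs of canyon gaps carried fewer replicative mesas. At least 1 of the 2 LADs was at least 50% under them in 176 of 776 canyon gaps (22.7%), against 445 of 1183 other gaps (37.6%) and 31.7% of all gaps. Canyon gaps had the lower share on 20 of 22 chromosomes, chromosomes 4 and 11 being the exceptions. Both LADs were at least 50% under replicative mesas in 15 canyon gaps (1.93%), against 5.56% of all gaps. Against gaps under neither (33.3%, 292 of 878) they were lower on 18 of 22. Among canyon gaps the share was lowest in those up to 100 kb (8.43%) and highest in those over 800 kb (37.2%), where gaps under neither had 37.4%. In the classes between it stayed at 17.2 to 20.3%, with no steady rise. With no Ras-induced base pair allowed in a canyon gap, the shares of canyon gaps and other gaps were 16.0 and 39.2%. Without any condition on Ras-induced mesas they were 25.1 and 37.2%. The other gaps include the Ras gaps, of which 55.9% had such a LAD, so part of the difference comes with the rule. Among canyon gaps the share also followed the state of the LADs. Of the 469 canyon gaps with both LADs under canyons, 62 had a LAD at least 50% under replicative mesas (13.2%). The share was 29.9% of the 87 other gaps in that state. Of those 87, 65 were canyon-and-Ras gaps, so the rule bears on this reference. Of all 117 canyon-and-Ras gaps, 41.0% had a LAD at least 50% under replicative mesas. With 1 LAD under canyons the shares were 34.5% of 249 canyon gaps and 37.4% of other gaps. With none they were 48.3% of 58 and 38.5%, where canyon gaps had the higher share. The lower share of canyon gaps thus lay mainly in those with both LADs under canyons. Their flanking LADs had a median of 340 kb, against 1123 kb in canyon gaps where neither was. Other gaps with both LADs under canyons had still shorter LADs, with a median of 265 kb. The part of LAD length in these shares was not tested.

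Ras-induced mesas, which the rule limited inside the gaps, touched 145 canyon gaps (18.7%), against 29.8% of all gaps, with a median cover of 23.7% where they did. In the LADs, at least 1 flank was at least 50% under Ras-induced mesas in 216 canyon gaps (27.8%), against 40.8% of all gaps and 35.0% of gaps under neither. H3K27me3 mesas covered at least 50% of a flanking LAD in 65 canyon gaps (8.38%), against 22.2% of all gaps and 30.9% of gaps under neither. Both LADs were so covered in 3 canyon gaps (0.387%), against 4.65% of all gaps. At least 1 flanking LAD was at least 50% under canyons in 92.5% of canyon gaps and 21.5% of gaps under neither. Canyons and H3K27me3 mesas come from the same comparison of cells, so these low mesa counts in the LADs are not a separate result. Inside the gaps, H3K27me3 mesas touched 21 canyon gaps and covered at least 50% of 0, against 7.1% of all gaps, which follows from the canyon condition.

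The 117 canyon-and-Ras gaps were like canyon gaps in some traits and unlike them in others. They too had short flanking LADs, with a median of 370 kb, and both LADs under canyons in 65 of 117 (55.6%, interval 46.1 to 64.7%). They were shorter, with a median of 280 kb, and 11.1% of them (13 of 117, 6.05 to 18.3%) lay within 5 Mb of a chromosome end. A Ras-induced mesa, none shorter than 501 kb, fills a short gap more readily, so the rule bears on their length. Replicative H3K4me3 mesas covered 14.7% of their base pairs, against 2.77% in canyon gaps, and at least 50% of 20 of them (17.1%, 10.8 to 25.2%). Replicative mesas also covered more of Ras gaps (18.6%) than of gaps under neither (4.15%), so that excess is not independent of the condition on Ras-induced mesas.

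A few canyon gaps were narrow breaks between very long LADs. The gap between the longest pair was 80 kb on chromosome 5 at 21740001 to 21820000, between LADs of 4260 and 8980 kb, and gap and both LADs lay wholly under a canyon. On chromosome 12 at 83810001 to 83920000, a gap of 110 kb lay between LADs of 3980 kb, wholly under the canyon, and 2770 kb, 10.4% under canyons. On chromosome 4 at 174330001 to 174660000, a gap of 330 kb wholly under a canyon lay between LADs of 3470 and 2630 kb, of which 4.97% and 2.80% were under canyons. In the first of these 3 the canyon ran across gap and LADs together, and in the last only small shares of the LADs were under canyons.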

How the data were processed

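The authors deposited 5 lists of regions as coordinates, with no signal or score in use. The submitters' processing notes name Bowtie 0.12.5 and hg18. Per the file headers, the name of the merged lamin B1 track also holds 100k, 10k and 10 tags, whose meaning is not explained, and the replicative H3K4me3 track is named as combined. How regions were called, whether H3 was subtracted and whether replicates were pooled was not given in the sources used here.

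Regions were read as BED intervals, overlapping regions of a list were merged, and cover was counted in base pairs with Python 3.11.15 and numpy 2.4.6. A region touched a gap when they shared at least 1 bp. LAD starts lie on a grid of 10000 bp and canyon starts on one of 100 bp. A flanking LAD counted as under a list at 50% cover. Coordinates are 1-based. Cover and membership were tested on simulated regions. Named regions were the 5 longest canyon gaps, those nearest each threshold, the 3 longest runs, the 3 canyons with most gaps, the 3 gaps with most replicative mesa and the 3 between the longest LADs; the text gives a part of them. The gaps nearest the Ras limit were added after the data were seen. Gaps, lists and comparisons were chosen with earlier results of these data known. Alternatives changed the cover limits, gap lengths, chromosomes, canyon list and LAD joining. Unassembled stretches of hg18 were not masked.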

Additional observations from a re-analysis of the deposited data

How the results depend on the processing

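Across 14 alternatives, 106 values were recomputed. Of these, 98 stayed within the spread between chromosomes (1 SD), the binomial interval of a share or 1.5 times a count. None changed direction. These limits were wide. For the length difference of 160 kb the spread was 183 kb, so its fall to 70 kb with no Ras-induced base pair counted as within it. The 98 also include alternatives, named below, that could change nothing. The share of gaps that were canyon gaps, 39.6% as reported, moved to 42.4% at 30% canyon cover, 37.4% at 70%, 34.8% at 90%, 32.2% with no Ras-induced base pair, 36.7% among gaps up to 1 Mb, and, in alternatives chosen after the data were seen, 46.3% among gaps of at least 200 kb and 45.6% without a Ras condition. The count of canyons touching canyon gaps moved to 337 with canyons under 10 kb apart joined. These follow from the construction of each alternative. A 50 kb minimum and joining of LADs under 50 kb apart changed nothing, because no gap is shorter than 60 kb. Leaving out each chromosome in turn gave 692 to 774 canyon gaps, a length difference of 150 to 190 kb, a share of 38.6 to 40.4%, a difference in both LADs under canyons of 51.5 to 53.9 points, in flank length of -285 to -247.5 kb, in LADs under replicative mesas of -16.1 to -13.5 points, in gap cover by replicative mesas of -4.67 to -3.93 points, and 489 to 544 canyons. No paired analysis was possible because the lists hold no values per library, so no library could be left out either. Depth is unknown, and a gap without a canyon may be one where a change was not detectable.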

Other observations

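Gaps that belong to no comparison above showed a wide range of cover. Of the 20 gaps over 3 Mb, 15 met the same limits on cover, with 56.1 to 100% under canyons (median 84.4%). The other 5 had no canyon base pair; the longest of these was 20.1 Mb, on chromosome 1 at 121280001 to 141380000. Long gaps on chromosome 9 at 47200001 to 65110000 (17.9 Mb) and on chromosome 19 at 24520001 to 32330000 (7.81 Mb) also met no region of the canyon list or of either H3K4me3 list. In contrast, a gap of 9.61 Mb on chromosome 16 at 35240001 to 44850000 lay wholly under canyons. Whether these intervals hold assembled sequence on hg18 was not tested.

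Chromosome X, left out of the counts above, had 46 gaps up to 3 Mb, of which 3 met the limits (6.52%, interval 1.37 to 17.9%), below the lowest autosomal share, 10.9% on chromosome 16, with overlapping intervals. Its 3 canyon gaps were between 150 and 2810 kb long.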
